A study of Mus musculus with 9 samples.

Results

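The genes described are 10 growth factor receptors and ligands: the EGF receptor family members Egfr, Erbb2 and Erbb3, the HGF receptor Met, the Met ligand Hgf, and the EGF-type ligands Tgfa, Areg, Ereg, Hbegf and Btc. They were taken by name, with every probe set that carried the gene as its only symbol. That gave 23 probe sets for 9 of the 10 genes, out of 34958 probe sets with 1 symbol for 18194 genes. No probe set carried Areg as its symbol in the annotation used, so Areg was not analysed here. Testing required a value over the array's 40th percentile on 3 or more arrays of the 9, and 21 of the 23 probe sets and 8 of the 9 genes passed. The single Ereg probe set and 1 of 7 Egfr probe sets did not pass.

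EGF-type ligands are made as membrane-anchored precursors, are cut loose by metalloproteases and bind receptor tyrosine kinases that pair with each other and signal through the RAS, ERK and PI3K pathways. EGFR binds ligand directly, ERBB2 has no known ligand of its own and serves as a partner, and ERBB3 binds neuregulins and depends on its partners because its kinase is weak. MET is the receptor of hepatocyte growth factor, which in liver comes mainly from non-parenchymal cells such as stellate cells. Both systems are known for driving hepatocyte proliferation after liver injury.

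RNA was measured on Affymetrix 3' expression arrays, 1 array per tissue piece, in 3 groups of 3 pieces, all from untreated male C57Bl6 mice of 12 months on regular chow. The wild-type mouse gave liver labelled normal with mild steatosis. Adjacent liver, labelled as having cellular alteration and severe steatosis, and tumor, a hepatocellular carcinoma with severe steatosis, both came from a mouse with the genotype SART1+/-. Each group's 3 pieces are from a single animal, so p-values measure the spread between pieces, and genotype, animal and labelled steatosis cannot be told apart when either tissue is set against wild type. Tumor and adjacent liver share genotype and animal.

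Values are log2 expression values, and a difference of 1 is 2-fold. A gene was called, and is said to have risen or fallen, when limma's Benjamini-Hochberg adjusted p over all 13888 tested genes was under 0.05 and the log2 difference was at least 1 in size. The probe set with the highest mean stands for a gene, and other probe sets were tested in the same model over all 24140 probe sets that passed the filter. Array medians lay between 5.76 and 5.81 and the 40th percentiles between 5.16 and 5.26. The latter level was chosen to stand for background here, since background itself was not measured. Sart1 itself was at 8.34 ± 0.02 in the wild-type pieces, 8.37 ± 0.03 in the adjacent pieces and 7.74 ± 0.03 in the tumor pieces (SD, n = 3), so the adjacent pieces did not show the lower level that their genotype label might lead one to look for. All 7 hepatocyte markers with a probe set were above the filter in every group.

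Egfr and Erbb3, 2 of the 4 receptors, fell in adjacent liver against wild type, by 4.36-fold and 2.13-fold, where 3.22% of all tested genes were called lower. In tumor against wild type 0 of the 4 receptors were called, where 13.0% of all tested genes were. Met and Erbb2 stayed within 1.29-fold of wild type in both tissues.

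Egfr was the receptor with the widest range. Its brightest probe set, 1435888_at, read 11.35, 11.55 and 11.69 in the wild-type pieces. The adjacent pieces read 9.57, 9.20 and 9.45. The tumor pieces read 10.64, 10.64 and 10.69. No group overlapped another, with wild type highest, adjacent liver lowest and tumor between them. The log2 difference from wild type was -2.12 in adjacent liver (SE 0.11, adjusted p = 5.06e-08) and -0.87 in tumor (SE 0.11, adjusted p = 3.41e-05), the latter under the 2-fold limit. Tumor exceeded the adjacent liver of the same animal by 1.25 (SE 0.11, adjusted p = 5.22e-06), a 2.38-fold rise, where 2.10% of all tested genes were called higher.

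The 4 bright Egfr probe sets gave the same order. Adjacent liver lay below wild type by a log2 difference of -1.84 with 1424932_at, -1.68 with 1460420_a_at and -1.71 with 1451530_at, all called. Tumor lay below wild type by -0.77, -0.62 and -0.62 in the same order, none of them called. Between tumor and adjacent liver these 3 probe sets gave 1.07, 1.07 and 1.09, all called. The dimmer probe sets moved less. Probe set 1432647_at was at 6.89 ± 0.13, 6.44 ± 0.11 and 6.67 ± 0.02 in the wild-type pieces, adjacent liver and tumor (SD, n = 3). Probe set 1454313_at was at 6.48 ± 0.17, 6.23 ± 0.08 and 6.37 ± 0.10, with groups that overlapped. Probe set 1457563_at was below the filter on all 9 arrays. The mean of all 7 probe sets took the tumor and adjacent liver difference to 0.78 (adjusted p = 3.63e-06), which ends that call.

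Because Egfr moved most among the receptors, the 250 bases before its RefSeq start are shown, from GRCm38.p6 chr11:16751953-16752202 on the plus strand, with matches to the motifs named below in capitals.
Egfr: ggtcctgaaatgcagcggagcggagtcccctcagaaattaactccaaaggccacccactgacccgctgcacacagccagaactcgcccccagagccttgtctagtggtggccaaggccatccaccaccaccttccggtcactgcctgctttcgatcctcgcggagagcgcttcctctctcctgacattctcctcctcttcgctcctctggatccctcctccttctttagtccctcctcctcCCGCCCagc
The stretch had 60.8% G and C against a median of 52.4% over 32851 promoter stretches of the same length. The motifs searched on both strands were GGGCGG (the GC box), TATAAA (the TATA box), CCAAT (a common promoter element bound by NF-Y), TGANTCA (the AP-1 motif), TTCNNNGAA (the STAT motif), and the core of the hypoxia response element as ACGTG or, in its other form, as GCGTG. The Egfr stretch held 1 GGGCGG, on the opposite strand, as did 32.7% of all stretches in either orientation, and no other motif of the set. A match or its absence describes these letters only.

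Erbb3 fell in adjacent liver and was near wild type in tumor. Its brightest probe set read 10.77, 10.80 and 10.73 in the wild-type pieces, 9.71, 9.49 and 9.82 in the adjacent pieces, and 10.72, 10.56 and 10.51 in tumor. The adjacent pieces lay below all others, and the tumor pieces lay just under the wild-type ones. The difference between adjacent and wild-type liver was -1.09 (SE 0.09, adjusted p = 1.81e-06). Between tumor and wild type it was -0.17 (SE 0.09, adjusted p = 0.123), and between tumor and adjacent liver 0.92 (SE 0.09, adjusted p = 1.3e-05), under the 2-fold limit. The Erbb3 call sat at that limit: it was lost without adjacent replicate 2, at -0.997, and with the mean of its probe sets, at -0.86. The dimmer probe set, 1452482_at, was at 5.93 ± 0.12, 5.30 ± 0.06 and 5.85 ± 0.18 in the wild-type pieces, adjacent liver and tumor (SD, n = 3), which is the same order.

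Erbb2 was not called in any comparison. Its only probe set read 5.94, 6.02 and 5.92 in the wild-type pieces, 5.85, 5.42 and 5.56 in the adjacent pieces, and 5.82, 5.85 and 5.85 in tumor, not far above background. Adjacent liver was at -0.35 against wild type (SE 0.10, adjusted p = 0.00863), while tumor against wild type gave -0.12 (SE 0.10, adjusted p = 0.30).

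Met was slightly lower in both tissues of the heterozygous mouse than in wild type. Its brightest probe set read 9.77, 9.82 and 9.94 in the wild-type pieces, 9.47, 9.43 and 9.52 in the adjacent pieces, and 9.68, 9.60 and 9.46 in tumor. The differences from wild type were -0.37 in adjacent liver (SE 0.07, adjusted p = 0.00121) and -0.26 in tumor (SE 0.07, adjusted p = 0.00961). The other probe set, 1422990_at, gave -0.29 and -0.28 (adjusted p = 0.00165 and 0.00233). All were under the 2-fold limit. Tumor and adjacent pieces overlapped, with a difference of 0.11 (SE 0.07, adjusted p = 0.257).

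Of 7 hepatocyte markers, 2 fell in tumor against wild type, Tat at -2.55 and Cps1 at -1.37, where 4.59% of all tested genes were called lower. In adjacent liver 1 fell, Tat at -1.75, where 3.22% were. Alb, singled out after its values were seen, was at 0.00 in tumor and 0.04 in adjacent liver, so the markers did not move together. The summed linear level of 7 markers was 92734 to 93484 over the wild-type pieces, 77943 to 79664 over the adjacent pieces and 74113 to 75945 over the tumor pieces, and 0 of the markers were below the filter. On the log2 scale Tat averaged 12.98, 11.22 and 10.43 and Cps1 13.54, 12.97 and 12.18 in wild type, adjacent liver and tumor. The lower sums mainly follow these 2 genes. The part of hepatocyte content in the Egfr and Erbb3 differences was not tested. In tissue RNA, fewer cells of a type and less RNA per cell cannot be told apart. The 3' minus 5' difference of Actb, a measure of RNA quality, was 0.86 ± 0.02 in the wild-type pieces, 0.85 ± 0.05 in the adjacent pieces and 0.59 ± 0.09 in the tumor pieces (log2, SD, n = 3). The same difference of Gapdh was 0.27 ± 0.02, 0.16 ± 0.02 and 0.21 ± 0.01 in that order (SD, n = 3), with no overlap between groups and with adjacent liver lowest and wild type highest, the order that Egfr and Erbb3 have. The part of RNA quality in these differences was not tested.

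**Figure D1:**
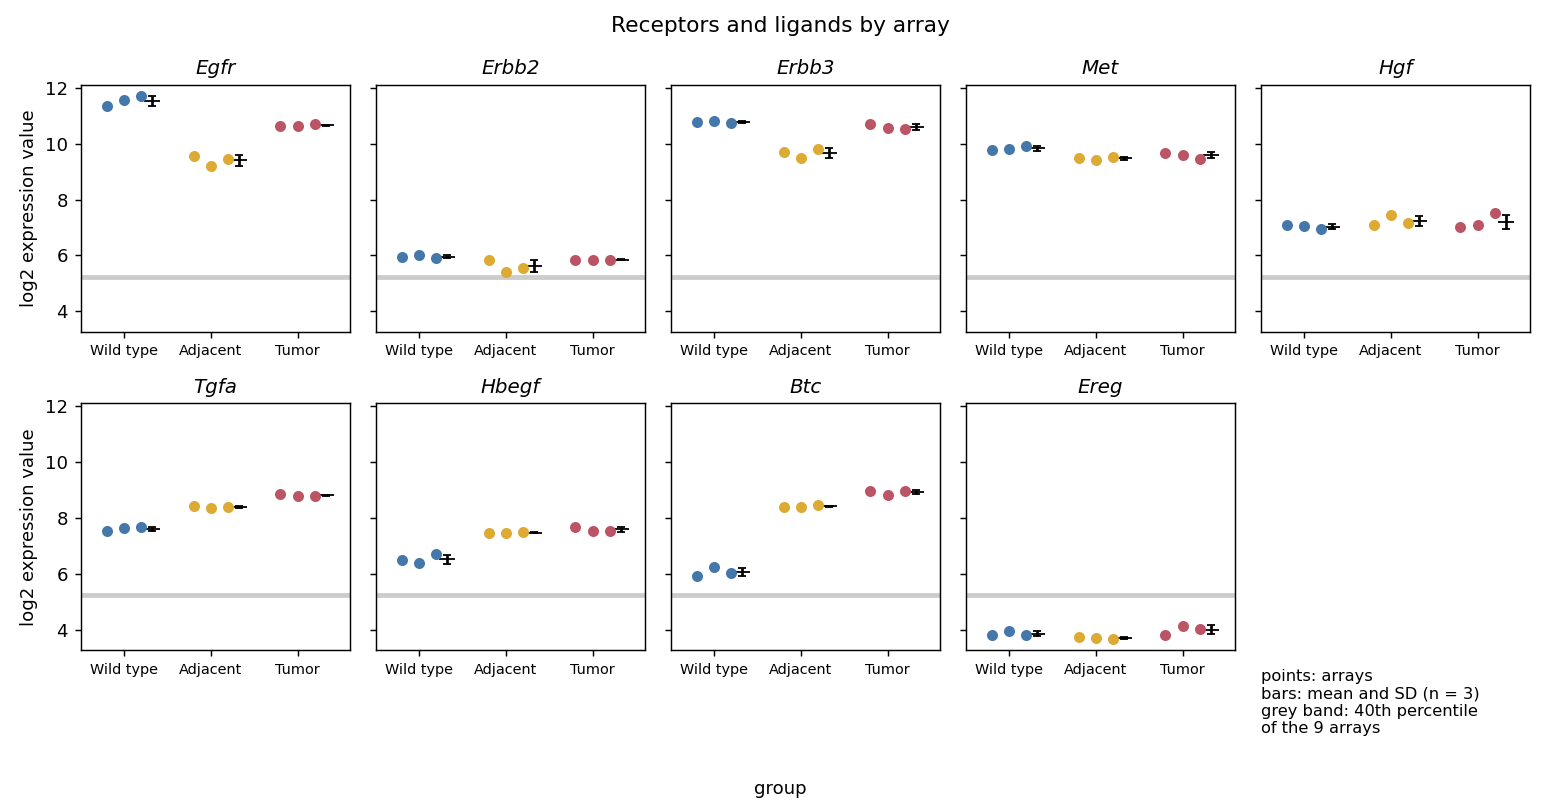
Log2 expression values (y axis) of the brightest probe set of each gene on the 9 arrays, by group (x axis); points are arrays, black marks the mean and SD of 3 arrays, and the grey band the 40th percentiles of the arrays. Egfr and Erbb3 are lowest in adjacent liver, Tgfa, Hbegf and Btc are lowest in wild-type liver, and Ereg lies under the band on every array.

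Among the ligands, calls against wild type were more numerous in tumor than in adjacent liver. Of 4 tested ligands, Hgf included, Btc, Tgfa and Hbegf rose in tumor, by 7.25-fold, 2.29-fold and 2.09-fold, where 8.41% of all tested genes were called higher. In adjacent liver Btc rose by 5.12-fold, where 8.29% of all genes were called higher, while Hbegf at 1.92-fold and Tgfa at 1.71-fold passed the adjusted p but not the 2-fold limit. Hgf was not called in either tissue. The contrast in counts depends on the probe set rule: with the mean of probe sets, Btc and Hbegf were called in both tissues and Tgfa in neither.

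Btc encodes betacellulin, a ligand of EGFR and ERBB4. It read 5.93, 6.24 and 6.02 in the wild-type pieces, 8.41, 8.41 and 8.45 in the adjacent pieces, and 8.97, 8.84 and 8.96 in tumor. The groups did not overlap, with wild type lowest and tumor highest. The difference from wild type was 2.86 in tumor (SE 0.08, adjusted p = 7.08e-10) and 2.36 in adjacent liver (SE 0.08, adjusted p = 3.9e-09). Tumor lay above adjacent liver by 0.50 (SE 0.08, adjusted p = 0.000496), under the 2-fold limit. The other probe set, 1421161_at, was at 3.66 ± 0.24 in the wild-type pieces, 5.06 ± 0.20 in the adjacent pieces and 5.77 ± 0.15 in the tumor pieces (SD, n = 3). Its differences from wild type, 2.11 in tumor and 1.40 in adjacent liver, were both called. It passed the filter on 4 arrays only, those of the 3 tumor pieces and 1 adjacent piece, so it was tested through the groups where it is high, and the adjacent difference sets values near or under background against each other. It is among the Btc probe sets counted further on.

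The 250 bases before the RefSeq start of Btc, the ligand with the largest rise, are shown from GRCm38.p6 chr5:91402995-91403244 on the minus strand, with motif matches in capitals.
Btc: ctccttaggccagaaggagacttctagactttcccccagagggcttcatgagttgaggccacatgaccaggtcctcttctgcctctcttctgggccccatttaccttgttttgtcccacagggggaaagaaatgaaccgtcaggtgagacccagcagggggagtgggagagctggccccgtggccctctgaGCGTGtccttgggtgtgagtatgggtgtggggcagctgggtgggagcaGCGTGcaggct
It held 2 GCGTG, a core carried by 28.2% of all stretches, and no other motif of the set. Its G and C share was 59.6%. Among other genes of the set with an entry, the stretch of Tgfa held 2 matches to the GC box and 1 to GCGTG. That of Met held 3 matches to the GC box, 1 to the AP-1 motif, 1 to GCGTG and 2 overlapping ones to ACGTG. In RefSeq, Epgn, Ereg, Areg and Btc, which all encode EGF-type ligands, follow one another on chromosome 5 with no other protein-coding gene between them.

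Hbegf encodes heparin-binding EGF-like growth factor, a ligand of EGFR and ERBB4. Its brighter probe set read 6.51, 6.38 and 6.70 in the wild-type pieces, 7.47, 7.47 and 7.49 in the adjacent pieces, and 7.69, 7.55 and 7.53 in tumor. All pieces of the heterozygous mouse lay above all wild-type pieces. The difference from wild type was 1.06 in tumor (SE 0.08, adjusted p = 1.17e-06) and 0.94 in adjacent liver (SE 0.08, adjusted p = 3.35e-06). Tumor and adjacent liver differed by 0.12 with this probe set (SE 0.08, adjusted p = 0.294). Without wild-type replicate 2 the tumor call was lost, at 0.98, and without wild-type replicate 3 the adjacent difference passed the limit, at 1.03. The other probe set, 1418350_at, rose in both, from 5.77 ± 0.29 to 7.77 ± 0.07 in tumor and to 7.47 ± 0.08 in adjacent liver (SD, n = 3), with differences of 2.00 (SE 0.12, adjusted p = 1.64e-07) and 1.69 (SE 0.12, adjusted p = 7.11e-07), and with 0.30 between tumor and adjacent liver (adjusted p = 0.0695).

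Tgfa encodes transforming growth factor alpha, an EGFR ligand. Its brightest probe set read 7.54, 7.65 and 7.66 in the wild-type pieces, 8.43, 8.35 and 8.40 in the adjacent pieces, and 8.84, 8.80 and 8.79 in tumor. The 3 groups did not overlap, and adjacent liver lay between the others. The difference between adjacent and wild-type liver was 0.77 (SE 0.06, adjusted p = 1.02e-06), and tumor exceeded adjacent liver by 0.42 (SE 0.06, adjusted p = 0.000164). Neither reached 2-fold, whereas tumor against wild type gave 1.20 (SE 0.06, adjusted p = 3.16e-08). In adjacent liver the dimmer probe sets 1421942_s_at and 1450421_at were at 0.03 and 0.02 from wild type (adjusted p = 0.86 and 0.76), and in tumor at 0.27 and 0.16. The Tgfa call therefore rests on 1 of 3 probe sets. The mean of the 3 gave 0.54 in tumor (adjusted p = 2.8e-05), under the limit.

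Hgf encodes hepatocyte growth factor. Its brightest probe set read 7.09, 7.07 and 6.94 in the wild-type pieces, 7.09, 7.44 and 7.18 in the adjacent pieces, and 7.01, 7.09 and 7.50 in tumor. The groups overlapped in all comparisons, with tumor replicate 3 the highest piece. The differences from wild type were 0.17 in tumor (SE 0.13, adjusted p = 0.279) and 0.20 in adjacent liver (SE 0.13, adjusted p = 0.194). Without tumor replicate 3 the tumor difference was 0.02. Probe set 1451866_a_at was at 6.51 ± 0.19, 6.76 ± 0.03 and 6.89 ± 0.40 in the wild-type pieces, adjacent liver and tumor (SD, n = 3), and 1442884_at lay near background at 5.37 ± 0.11, 5.36 ± 0.10 and 5.44 ± 0.11.

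Ereg, which encodes the EGFR ligand epiregulin, lay below the filter on all 9 arrays. It read 3.81, 3.96 and 3.80 in the wild-type pieces, 3.73, 3.71 and 3.67 in the adjacent pieces, and 3.81, 4.13 and 4.04 in tumor. These values lay under the level chosen to stand for background and were not tested.

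**Figure D2:**
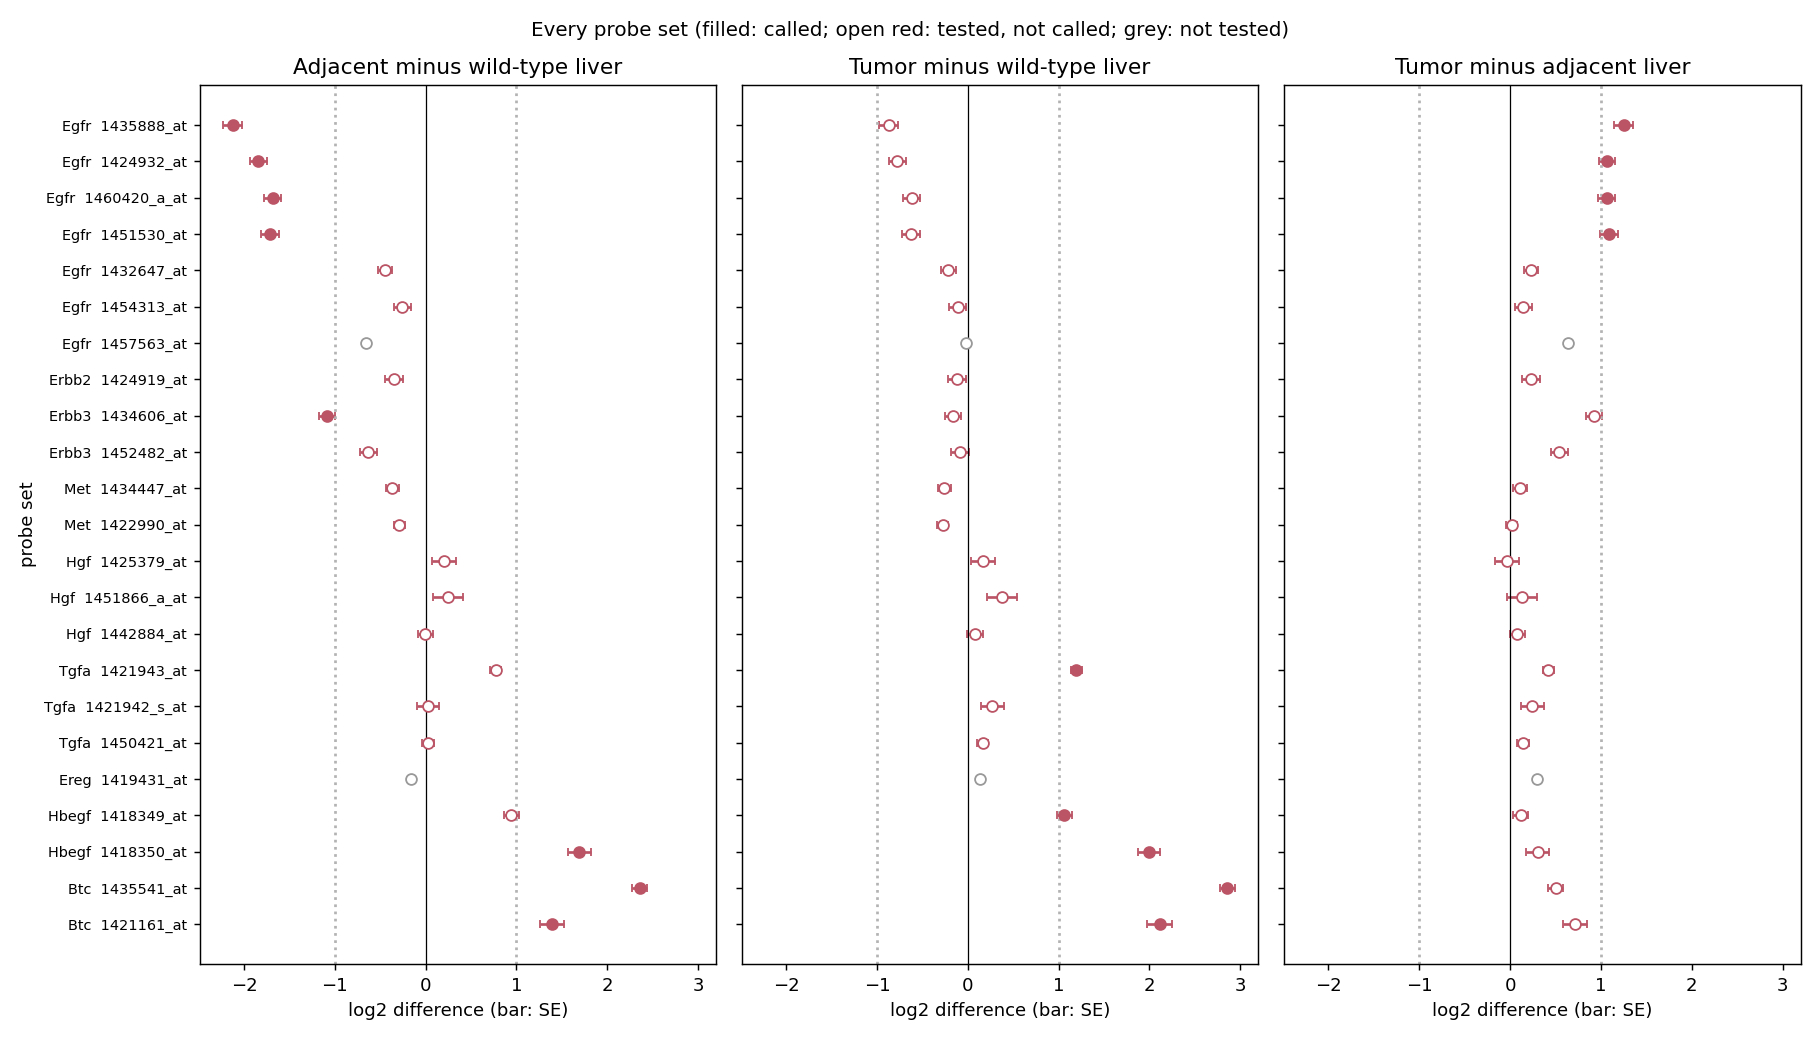
Log2 differences (x axis, bars are SE) of all 23 probe sets (y axis) in 3 comparisons; filled points were called, open red points were tested and not called, and grey points were not tested. The 4 brightest Egfr probe sets lie at -2.12 to -1.68 in the adjacent pieces, and 1 of 3 Tgfa probe sets lies apart from the others.

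Read against all genes, the counts were as follows. In tumor against wild-type liver, 3 of 8 tested genes of the set were called, where 13.0% of all tested genes were called. Of these, 3 were higher against a background of 8.41%, and 0 were lower against 4.59%. The adjusted p alone was passed by 5 of 8, close to the 63.4% of all genes, and the 2 groups did not overlap for 7 of 8, where 69.1% of all genes showed this. The set's median difference was 0.02, beside -0.01 over all tested genes, since receptors and ligands lay on opposite sides. Over probe sets, 5 of 21 were higher against 7.80%, the dim Btc probe set among them, and 0 were lower against 4.22%.

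In adjacent against wild-type liver, 3 of 8 were called, beside 11.5% of all genes. The 1 higher gene, Btc, stands against 8.29% and the 2 lower genes, Egfr and Erbb3, against 3.22%. The adjusted p alone was passed by 7 of 8 beside 63.0% of all genes, and 7 of 8 had groups without overlap beside 69.5%. Over probe sets, 3 of 21 were higher against 7.46%, the dim Btc probe set among them, and 5 were lower against 3.21%, 4 of the 5 belonging to Egfr. Both comparisons use the same wild-type pieces, so their values are not independent of each other.

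In tumor against adjacent liver, Egfr was the 1 gene of 8 called, where 5.04% of all genes were. It was higher, against a background of 2.10%, and 0 were lower against 2.94%. The adjusted p was passed by 4 of 8, Egfr, Erbb3, Tgfa and Btc, all higher in tumor, beside 45.2% of all genes. Groups did not overlap for 5 of 8, beside 53.0%. Over probe sets, 4 of 21 were higher, all of Egfr, against 2.25%, and 0 were lower against 2.47%.

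Markers of other cell types that can make or respond to these ligands were called in part, and their counts are to be read against all tested genes, of which 8.41% were called higher and 4.59% lower in tumor, and 8.29% and 3.22% in adjacent liver. The summed linear level of 7 cholangiocyte markers was 542 to 581 in the wild-type pieces, 2255 to 2752 in adjacent liver and 1598 to 1767 in tumor. Cldn7 alone averaged 5.36, 10.66 and 9.16 on the log2 scale in that order, so the adjacent sum mainly follows that gene. Of the 7, Cldn7 and Krt23 rose in tumor, by 3.81 and 2.41, and in adjacent liver, by 5.31 and 1.63. Cftr was called in adjacent liver too, but it was at 3.98 in wild type and 4.44 in tumor, under the filter, and was tested only through adjacent liver, at 5.32. Krt19, Krt7 and Epcam, singled out after their values were seen, were at 0.31, 0.09 and 0.09 in tumor and not called. In adjacent liver they averaged 6.27, 5.37 and 7.59, beside 6.40, 5.16 and 7.65 in wild type. Sox9, at 6.33 in wild type, 7.33 in adjacent liver and 7.06 in tumor, was not called. The sum of 9 macrophage markers was 8376 to 9194, 11117 to 16240 and 13771 to 16749 in the same order, with 3 higher and 1 lower in tumor (2 and 0 after cyclic loess) and 2 higher and 2 lower in adjacent liver. The sum of 5 neutrophil markers was 399 to 458, 1150 to 1410 and 1486 to 1715, with S100a8 and S100a9 higher in both tissues. The other neutrophil markers, Csf3r, Cxcr2 and Mpo, were at 0.67, -0.17 and 0.01 in tumor and not called.

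Stellate cell and fibroblast markers, 11 in number, summed to 6638 to 9232 in the wild-type pieces, 9854 to 11932 in adjacent liver and 10536 to 15115 in tumor. In both tissues the collagens Col1a1, Col1a2 and Col3a1 and the receptor Pdgfrb rose. Lrat, the retinol-esterifying enzyme of quiescent stellate cells, fell, making 4 higher and 1 lower of 11. The other Pdgfrb probe set was called in neither tissue, at 0.79 in tumor and 0.74 in adjacent liver, and the other Col1a1 probe set gave 0.63 in tumor, not called. Hgf, which these cells are known to make, was not called. Sums of 9 endothelial markers overlapped between wild type and tumor, at 5111 to 5533 and 4262 to 5252, and lay at 3528 to 4824 in adjacent liver. Of the 9, Lyve1 rose in both tissues and Clec4g fell in adjacent liver, where another probe set of each, at 0.65 and -0.53, was not called. Sums of 8 lymphocyte markers were 547 to 589, 675 to 758 and 747 to 764 in wild type, adjacent liver and tumor, with Cd79b alone called in tumor and Nkg7 alone in adjacent liver, both higher. The part of these cells in the ligand differences was not tested.

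Other genes of the same pathway were taken as lists. Of 19 feedback inhibitors, 8 rose and 0 fell in tumor against wild type, where 8.41% of all tested genes were called higher and 4.59% lower, with a median of 0.77. Dusp4, a phosphatase that inactivates MAP kinases, rose by 2.95 on the log2 scale (SE 0.12, adjusted p = 8.8e-09). Socs5 was at 1.77, and the RAS and ERK inhibitors Spred1 at 1.59 and Spry2 at 1.50. Spry2 stood at 5.29 in the wild-type pieces, near background, and Dusp4 at 5.505, not far above it. Among those not called, Errfi1, Ptprj and Lrig3, named after their values were seen, were at -0.445, -0.41 and -0.35 in tumor. Others not called, such as Cbl at 0.89 and Spry1 at 0.77, lay on the higher side. In adjacent liver 2 of 19 rose, Dusp4 at 2.08 and the ERK phosphatase Dusp5 at 1.23, a share near the 8.29% of all genes, with a median of 0.13. In tumor against adjacent liver, where 2.10% of all genes were called higher, 3 rose, the ERK phosphatase Dusp6 at 1.51 (SE 0.10, adjusted p = 1.24e-06), Spred2 at 1.28 and the ubiquitin ligase Cblc at 1.02, with a median of 0.49.

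Dusp6, named for that comparison, was at 9.75 ± 0.11 in the wild-type pieces, 10.20 ± 0.16 in the adjacent pieces and 11.71 ± 0.15 in the tumor pieces (SD, n = 3). Dimmer probe sets did not all follow: against wild-type liver, tumor was at -0.21 with another Spry2 probe set (adjusted p = 0.109), at -0.34 with another of Spred1 (adjusted p = 0.0182) and at -0.10 with another of Spred2 (adjusted p = 0.307). The remaining Spred1 probe sets gave 1.69 and 1.36, called, and 0.98, 0.91 and 0.87, not called. The remaining Spred2 ones gave 1.28, called, and 0.47 and 0.24, not called.

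Of 16 transcripts known to be induced by ERK signalling, 7 rose and 0 fell in tumor against wild type, beside the 8.41% and 4.59% of all tested genes, with a median of 0.81. One of the 7, Egr2, was at 4.38 in wild type, under the filter, and was tested through the tissues where it is high. Ier3, an immediate early gene, rose by 3.94 (SE 0.13), the cyclin Ccnd1 by 2.29, Myc by 1.76 and the ETS factor Etv5 by 1.70, although the other Etv5 probe sets gave 0.83 and 0.84 and were not called. Ier3 stood at 5.46 ± 0.26 in the wild-type pieces (SD, n = 3), not far above background. In adjacent liver 7 rose, Egr2 again among them, and 1 fell, beside 8.29% and 3.22% of all genes, with a median of 0.72. Ier3 was at 4.10, Ccnd1 at 2.57, Myc at 1.59 and Jun at 1.39, while Phlda1, named after its value was seen, was at -1.35. In tumor against adjacent liver 3 rose, beside 2.10% of all genes, Phlda1 at 1.53, Etv5 at 1.41 and Etv4 at 1.02, with a median of 0.10. Phlda1, like Egfr, was lowest in adjacent liver, at 10.53 ± 0.21, 9.18 ± 0.19 and 10.71 ± 0.13 in the wild-type pieces, adjacent liver and tumor (SD, n = 3). The 3 adjacent pieces had an identical Etv5 value, 6.38, so that group's own spread is not known, and the other Etv5 probe sets gave 0.66 and 0.73 between tumor and adjacent liver, under the limit.

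Of 11 tested proteases and inhibitors that release or activate the ligands, 3 rose and 1 fell in tumor against wild type, beside 8.41% and 4.59% of all tested genes. The membrane protease St14, an activator of HGF precursor, was at 2.09 (SE 0.09, adjusted p = 9.42e-09). Rhbdf1, an inactive rhomboid protein that supports the sheddase ADAM17, was at 1.95, the plasminogen activator Plat at 2.70 (SE 0.39) and plasma kallikrein Klkb1 at -1.89. Plat varied widely among the tumor pieces, at 8.48 ± 1.04 (SD, n = 3). In adjacent liver Plat rose by 2.28, Rhbdf1 by 1.90 and the sheddase Adam10 by 1.04, with 0 lower, beside 8.29% and 3.22% of all genes, although another Adam10 probe set gave -0.06. Between the tissues of the same mouse, St14 in tumor exceeded adjacent liver by 2.26 (SE 0.09, adjusted p = 3.3e-08) and Klkb1 was at -1.33, where 2.10% of all genes were called higher and 2.94% lower. St14 stood at 6.57 ± 0.10 in the wild-type pieces, 6.39 ± 0.11 in the adjacent pieces and 8.65 ± 0.12 in the tumor pieces (SD, n = 3).

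Of 5 tested further ligands and receptors, 1 rose in tumor, the ERBB4 ligand Nrg4 at 1.83 (SE 0.09, adjusted p = 2.55e-08), and 0 were called in the other comparisons. Epgn, the EGF-type ligand epigen, singled out after its values were seen, was at -0.32 in tumor and -0.30 in adjacent liver (adjusted p = 0.00469 and 0.0074), under the 2-fold limit. Nrg4 was at 5.91 ± 0.03 in the wild-type pieces, 6.76 ± 0.03 in the adjacent pieces and 7.74 ± 0.19 in the tumor pieces (SD, n = 3). Of 19 tested adaptors and kinases, the tyrosine kinase Src alone was called against wild type, at 2.10 in tumor and 1.98 in the adjacent pieces, and 0 were called between tumor and adjacent liver. Beside these counts, 8.41% and 8.29% of all genes were called higher in tumor and in adjacent liver. The kinase list's medians were 0.14 and -0.11 against wild type.

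**Figure D3:**
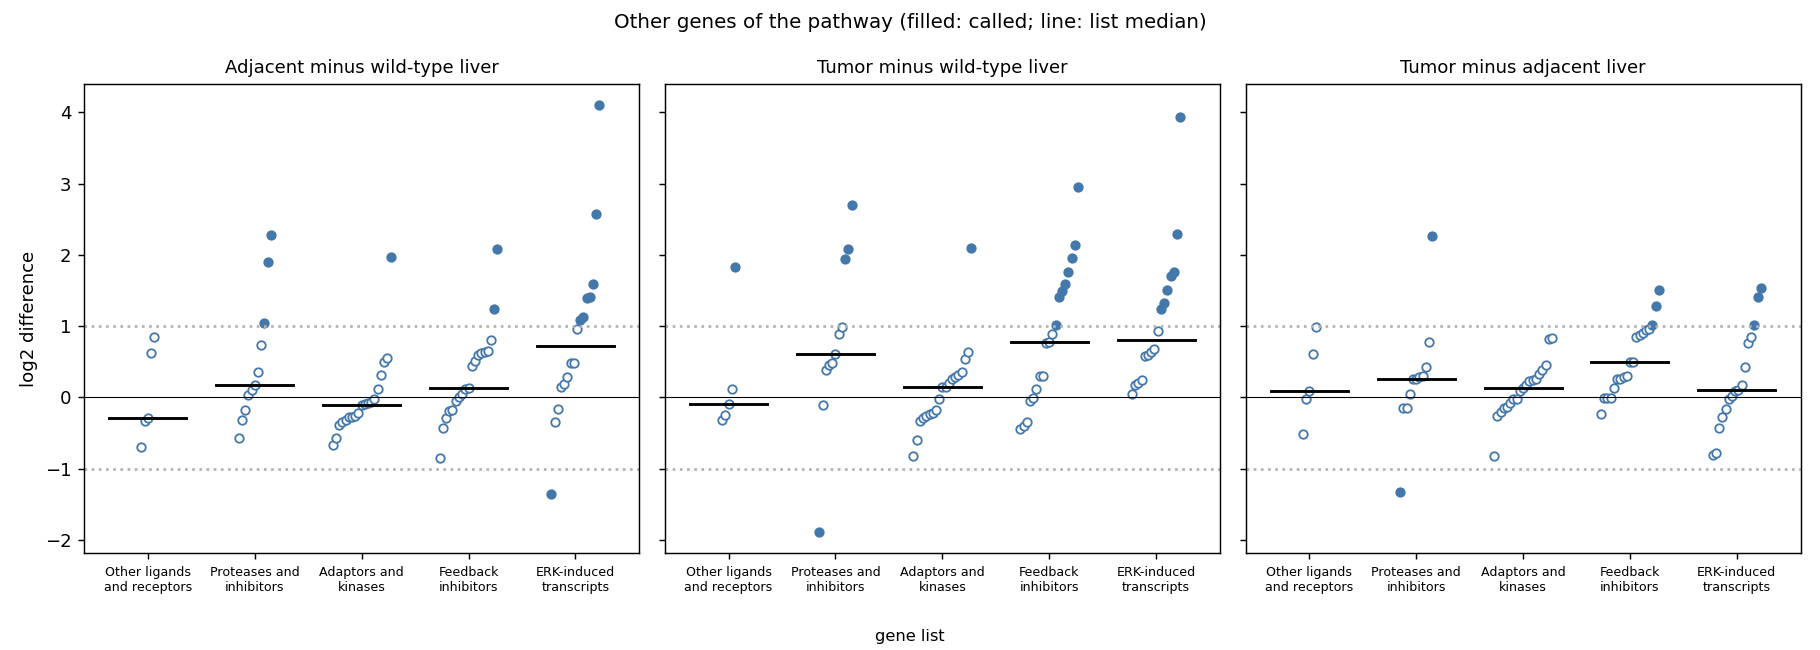
Log2 differences (y axis) of the tested genes of 5 lists (x axis) in 3 comparisons; each point is a gene, filled points were called, and the black line is the list median. In tumor against wild type the medians of feedback inhibitors and ERK-induced transcripts lie at 0.77 and 0.81, and in tumor against adjacent liver at 0.49 and 0.10.

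The genes whose 9 values most resembled those of a given gene of the set were found by Pearson correlation over the 9 arrays, which fall into 3 groups, so the likeness reflects mainly the group means. For Egfr these were Ddt (r = 0.998), Slc39a8 (r = 0.993) and Tuba4a (r = 0.991), where 1% of all tested genes exceeded 0.963. Ddt, for instance, stood at 12.39 in the wild-type pieces, 11.23 in the adjacent pieces and 11.91 in the tumor pieces. For Erbb3 they were Pex3 (r = 0.997), Timm17b (r = 0.994) and Pcbd1 (r = 0.993). For Met they were Mto1 (r = 0.992), Car8 (r = 0.988) and Pttg1ip (r = 0.985). For Tgfa they were Gm6958, Ptpn12 and 2410006H16Rik (r = 0.997 for each), where 1% of genes exceeded 0.984.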

How the data were processed

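The deposited values are log2 expression values per probe set. Per the submitters' processing notes, the authors used Affymetrix Expression Console (version 1.3.1.187) and RMA, which corrects background, equalises array distributions and summarises probes, and so hides a shift of most genes. The log base was checked: read as powers of 2 the brightest value is 23383, within a 16-bit scanner's range. Probe sets were named from the platform annotation, and only those with 1 symbol were used. Probe sets above the 40th percentile on at least 3 arrays were fitted in R 4.3.3 by limma 3.58.1 (1 mean per group, all 9 arrays, 6 residual degrees of freedom, Benjamini-Hochberg adjustment). The step was tested on simulated data. Detection calls and scan dates were not used here, and 3 arrays per group limit the precision. Promoter stretches of 7 of the 10 genes came from a RefSeq table, build GRCm38.p6. Erbb3 and Ereg had no entry there, and Hbegf was left out.

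The genes and gene lists were chosen with earlier results of these data known. The rule for named genes took all members with every probe set, Sart1, per comparison up to 4 called genes of each pathway list with the smallest adjusted p, and the 3 genes most correlated with Egfr, Erbb3, Met and Tgfa. Alternatives covered the filter, the probe set rule, normalization, the variance model, the samples fitted, a replicate block, the call rule and each array left out.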

Additional observations from a re-analysis of the deposited data

How the results depend on the processing

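Of 453 member differences recomputed under the alternatives, 440 kept their direction and their side of the threshold. Of the rest, 5 lost a call, 3 gained one and 5 changed sign. Several alternatives could change only the adjusted p and not the difference itself. Among these were the filters, the variance model, the 2 groups fitted alone, the replicate block and leaving out an array of the uncompared group. The 440 therefore overstate how far the differences were put to the test. All sign changes concerned Hgf between tumor and adjacent liver, never called: from -0.04 it went to 0.13 with the most variable probe set, 0.059 with the mean of probe sets, and -0.19 to 0.07 over the fits that each leave out 1 array. Without adjacent replicate 2 it was 0.068, without tumor replicate 1 0.06 and without tumor replicate 2 0.02. With no minimum difference, called members numbered 5 in tumor and 7 in adjacent liver against wild type and 4 between tumor and adjacent liver, and called genes 8799, 8745 and 6274. Counted over all probe sets, 2901, 2578 and 1140 were called in place of 1806, 1599 and 700 genes. With the mean of probe sets, 0 members were called between tumor and adjacent liver by limma, where Egfr was at 0.78. Leaving out 1 array gave 2 to 3, 2 to 4 and 1 called members. After cyclic loess, list calls against wild type changed in tumor for feedback inhibitors (8 to 7), macrophage markers (4 to 2) and endothelial markers (1 to 2), and in adjacent liver for proteases (3 to 2), cholangiocyte markers (3 to 4) and endothelial markers (2 to 3). With arrays centred on equal medians, cholangiocyte markers in adjacent liver went from 3 to 4 and stellate markers from 5 to 4, Lrat being lost; these list checks were added after the data were seen. The replicate number as a replicate block gave 3, 3 and 1 called members and 1807, 1599 and 700 called genes. The labels do not say that the numbers pair pieces. Deviations of same-numbered pieces correlated at -0.07 to 0.13 (median 0.05), beside -0.14 to 0.09 (median -0.02) for different-numbered ones.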

Other observations

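Identical values recur between arrays. Of the 13888 tested genes, 3621 (26.1%) had the same value, to all deposited decimals, on 2 or more of the 9 arrays, 2083 (15.0%) on 2 or more arrays of 1 group and 140 (1.01%) on all 3 arrays of a group. Among the receptors and ligands, 2 adjacent pieces shared a value of Btc and 2 one of Hbegf, and 2 tumor pieces one of Erbb2. For these genes the SD of that group may understate how far pieces can differ, which was not tested. Limma's standard error draws on all groups and genes.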
